A study of Mus musculus with 6 samples.

Results

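The genes described here encode the nuclear subunits of oxidative phosphorylation in the cochlear lateral wall of old and young mice. They were chosen by symbol from a deposited table of 17091 genes: the Nduf a, b, c, s and v series, Sdha to Sdhd, and symbols that begin with Uqcr, Cox4 to Cox8 or Atp5, with Cyc1 and Cycs. The choice gave 82 genes, of which 35 were counted with complex I, 4 with complex II, 9 with complex III, 17 with complex IV and 15 with complex V. Cycs, the mobile carrier cytochrome c, and Atp5s, a coupling factor outside the usual list of subunits, complete the set. Ndufa4 and Ndufa4l2 were counted with complex IV, where the Ndufa4 protein is now placed. Complexes were otherwise assigned by symbol, which also puts Cox7a2l with complex IV.

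RNA was sequenced from 3 old mice aged 2.5 years and 3 young mice aged 2 months, all of the inbred strain CBA/CaJ, with both cochleas of a mouse pooled into 1 library. No treatment or engineered allele is given for either group. The tissue label names the lateral wall, which holds the stria vascularis and the spiral ligament, but auditory nerve cells are entered as the source of every sample. Neuron and glia markers summed to 17570 to 30870 normalised read counts in the old libraries and to 9364 to 11200 in the young, below the sums of the marginal cell and fibrocyte markers. Recovered reads ranged from 37055355 to 39103398 per library. Fibrocyte markers of the spiral ligament summed to 439000 to 946300 in the old libraries and to 1035000 to 1163000 in the young, and marginal cell markers to 391200 to 535500 in the old and 522600 to 562200 in the young. Old replicate 3 stood apart in Xist, the transcript of the inactive X chromosome, with 45.2 normalised read counts against 24380 to 29160 in the other 5 libraries. The labels give no sex, and 3 of the 82 genes, Ndufa1, Ndufb11 and Cox7b, are X-linked.

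Complexes I to IV pass electrons from NADH and succinate to oxygen and pump protons across the inner mitochondrial membrane, except complex II, which pumps none. Complex V, the ATP synthase, lets the protons flow back and makes ATP. In the lateral wall, the marginal cells of the stria vascularis are crowded with mitochondria and spend ATP on Na,K-ATPase to secrete potassium into the endolymph. The subunits encoded by mitochondrial DNA, and Cox6a2, Cox7b2, Cox8c and Atp5mpl, are not analysed here.

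The promoters of these genes are known as targets of the factors NRF1, GABP and YY1. RefSeq promoter entries of GRCm38.p6, which run from 250 bases before to 50 after the annotated start, were found for 66 of the 82 genes. Each entry was searched on both strands for GCGCATGCG (NRF1), CCGGAAG (GABP) and AAGATGGC (YY1); none of these strings contains another, and an entry with several was counted for each. At least 1 string was present in 29 of the 66 entries (43.9%), beside 22.4% of the 13143 deposited genes with an entry and 14.1% of all 27025 entries. The NRF1 string was found in 9 entries (13.6%, beside 3.39% of the deposited genes), the GABP string in 16 (24.2%, beside 16.6%) and the YY1 string in 9 (13.6%, beside 4.38%). Of the 16 genes whose old values all lay above the young ones, 7 held a string between 150 bases before and 30 after the start. Among the 16, Cox4i1 has no entry, and other genes were not counted in this window. Of the 7 stretches, those of cytochrome c and of 1 gene for each complex are printed to show where the string lies. They run 5′ to 3′ on the strand of the gene, and capitals mark the string, on either strand. For complex I, where Ndufa8 and Ndufb7 both qualified, the NRF1 example was taken.
Ndufa8, chr2:36049309-36049488, minus strand: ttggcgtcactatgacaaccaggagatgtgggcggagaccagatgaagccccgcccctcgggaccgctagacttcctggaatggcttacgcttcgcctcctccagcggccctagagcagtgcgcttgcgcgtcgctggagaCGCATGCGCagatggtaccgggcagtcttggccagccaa
Sdhb, chr4:140961121-140961300, plus strand: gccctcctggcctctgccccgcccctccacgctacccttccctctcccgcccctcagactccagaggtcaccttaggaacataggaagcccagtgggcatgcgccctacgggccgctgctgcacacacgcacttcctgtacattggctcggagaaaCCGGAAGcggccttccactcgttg
Uqcrh, chr4:116075041-116075220, minus strand: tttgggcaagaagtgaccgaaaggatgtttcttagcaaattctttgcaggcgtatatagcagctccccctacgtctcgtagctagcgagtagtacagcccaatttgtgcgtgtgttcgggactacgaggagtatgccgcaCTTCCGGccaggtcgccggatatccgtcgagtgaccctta
Cycs, chr6:50566540-50566719, minus strand: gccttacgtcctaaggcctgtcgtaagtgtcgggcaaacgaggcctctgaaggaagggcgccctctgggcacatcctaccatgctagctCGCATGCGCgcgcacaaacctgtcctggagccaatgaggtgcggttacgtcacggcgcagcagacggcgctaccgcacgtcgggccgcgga
Cox6a1, chr5:115348929-115349108, minus strand: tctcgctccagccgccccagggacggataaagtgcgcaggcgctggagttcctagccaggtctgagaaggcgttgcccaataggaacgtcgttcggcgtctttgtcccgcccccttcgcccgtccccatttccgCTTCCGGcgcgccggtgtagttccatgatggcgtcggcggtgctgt
Atp5h, chr11:115419890-115420069, minus strand: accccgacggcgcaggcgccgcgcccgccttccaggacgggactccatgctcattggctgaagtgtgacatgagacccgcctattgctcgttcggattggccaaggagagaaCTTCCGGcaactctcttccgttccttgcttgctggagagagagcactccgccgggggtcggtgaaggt
A match is a stretch of letters and not evidence of binding in this tissue.

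Levels were compared between genes as normalised read counts per kilobase of transcript, averaged over the 6 libraries. The highest levels belonged to Atp5b, the catalytic beta subunit of the ATP synthase (34040 per kilobase), Cox8a (33640) and Cox4i1 (29900), both nuclear subunits of cytochrome c oxidase. The median over the 82 genes was 4340 per kilobase. By complex the medians were 3823 for complex I, 5513 for complex II, 5074 for complex III, 7987 for complex IV and 7954 for complex V. Complex I thus had the lowest median and complexes IV and V the highest, but the ranges of single genes overlapped widely (91.4 to 9338 per kilobase in complex I, 251 to 34040 in complex V).

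The low end of the range was made up largely of genes with a near-identical copy elsewhere. Of the 82 genes, 14 have a coding sequence that matches another transcript at 98% identity or more, and all 14 lay below the median level of the 82 genes, as did 27 of the 68 without such a copy. The median level was 939 per kilobase with a copy and 5718 without. They include Ndufs5 (91.4 per kilobase), Cox5b (198), Ndufa12 (213), Atp5g1 (251) and Cox7c (276), which are constitutive subunits or, for Atp5g1, 1 of the 3 genes for subunit c. The sources used here do not say how the authors treated reads that map to several places, so levels of these 14 genes are uncertain, and a low level among them was not tested against the loss of such reads. The per-kilobase level of Atp5g1 also rests on a reference transcript of 4660 bases. They do not give the strand either, and exons of 25 of the 82 genes overlap a gene on the other strand.

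**Figure D1:**
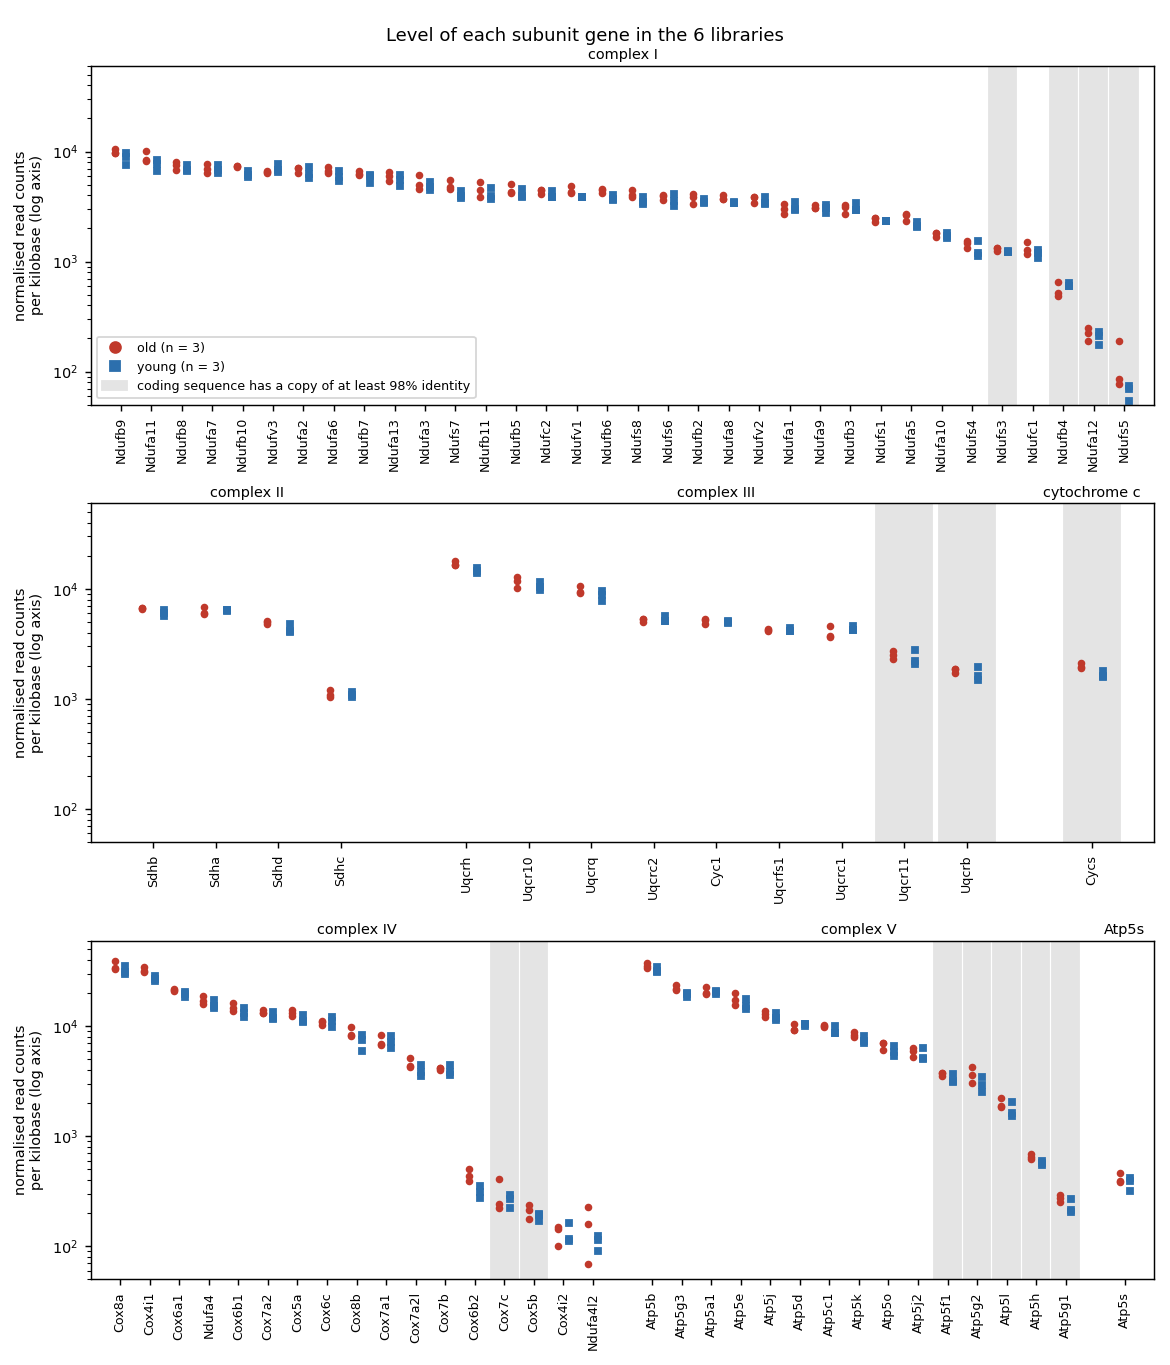
Normalised read counts per kilobase of transcript (log axis) for each gene shown in the 3 old (red circles) and 3 young (blue squares) libraries, by complex and in order of level, with grey bands on genes whose coding sequence has a copy of at least 98% identity. The old and young points of most genes lie on top of each other, and the grey bands lie in the lower part of complexes I, III, IV and V, down to 91.4 per kilobase for Ndufs5.

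The comparison of old with young asks, after the study's title, what changes with age in this tissue. None of the 82 genes differed between old and young mice at an adjusted p under 0.05 (limma with Benjamini-Hochberg adjustment over 17091 genes), where 898 of all genes (5.25%) did. The count was also 0 of 82 with edgeR, which called 866 genes (5.07%), with DESeq2, which called 1819 (10.6%), and in the authors' deposited table, which holds 1818. The smallest adjusted p among the 82 genes was 0.139 by limma, and 0.0987 in the authors' deposited table. An unadjusted limma p under 0.05 was reached by 8 of them, beside 21.3% of all genes. In bulk tissue, fewer cells of a type and less RNA per cell cannot be told apart. Each library is a separate mouse, so these p-values set the difference between the groups against the spread between animals. Old replicate 3, which stood apart in Xist, is part of that spread. Any difference in processing between the groups cannot be told apart from age.

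The 95% interval of the log2 fold change had a median half-width of 0.24, and in 80 of the 82 genes it lay between -1 and 1. The exceptions were Ndufs5 and Ndufa4l2, both of few reads. The lowest bound of any gene was -0.58, for Cox4i2.

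The direction was shared more than the size. The log2 fold change, old minus young, was above 0 in 71 of the 82 genes (86.6%) and in 49.8% of all genes tested. Most of the 82 have short transcripts, and other genes under 600 bases with a mean of at least 50 were above 0 in 73.1%. After the correction for length and GC content described below, 42 of the 82 were above 0, beside 7741 of all 17091 genes. The median was 0.13 over the 82 genes and -0.001 over all genes, and the single values ran from -0.16 for Ndufb4 to 0.70 for Ndufs5. By complex the medians were 0.11 for complex I, 0.081 for complex II, 0.093 for complex III, 0.14 for complex IV and 0.16 for complex V. The old values all lay above the young ones in 16 genes, beside 13.2% of all genes, and below them in 0, beside 12.8%. Those 16 were Ndufa5, Ndufa8, Ndufb6, Ndufb7, Ndufb10, Ndufs5, Ndufs7 and Ndufv1 of complex I, Sdhb, Uqcrh, Cycs, Cox4i1, Cox6a1 and Cox6b2, and Atp5g3 and Atp5h.

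**Figure D2:**
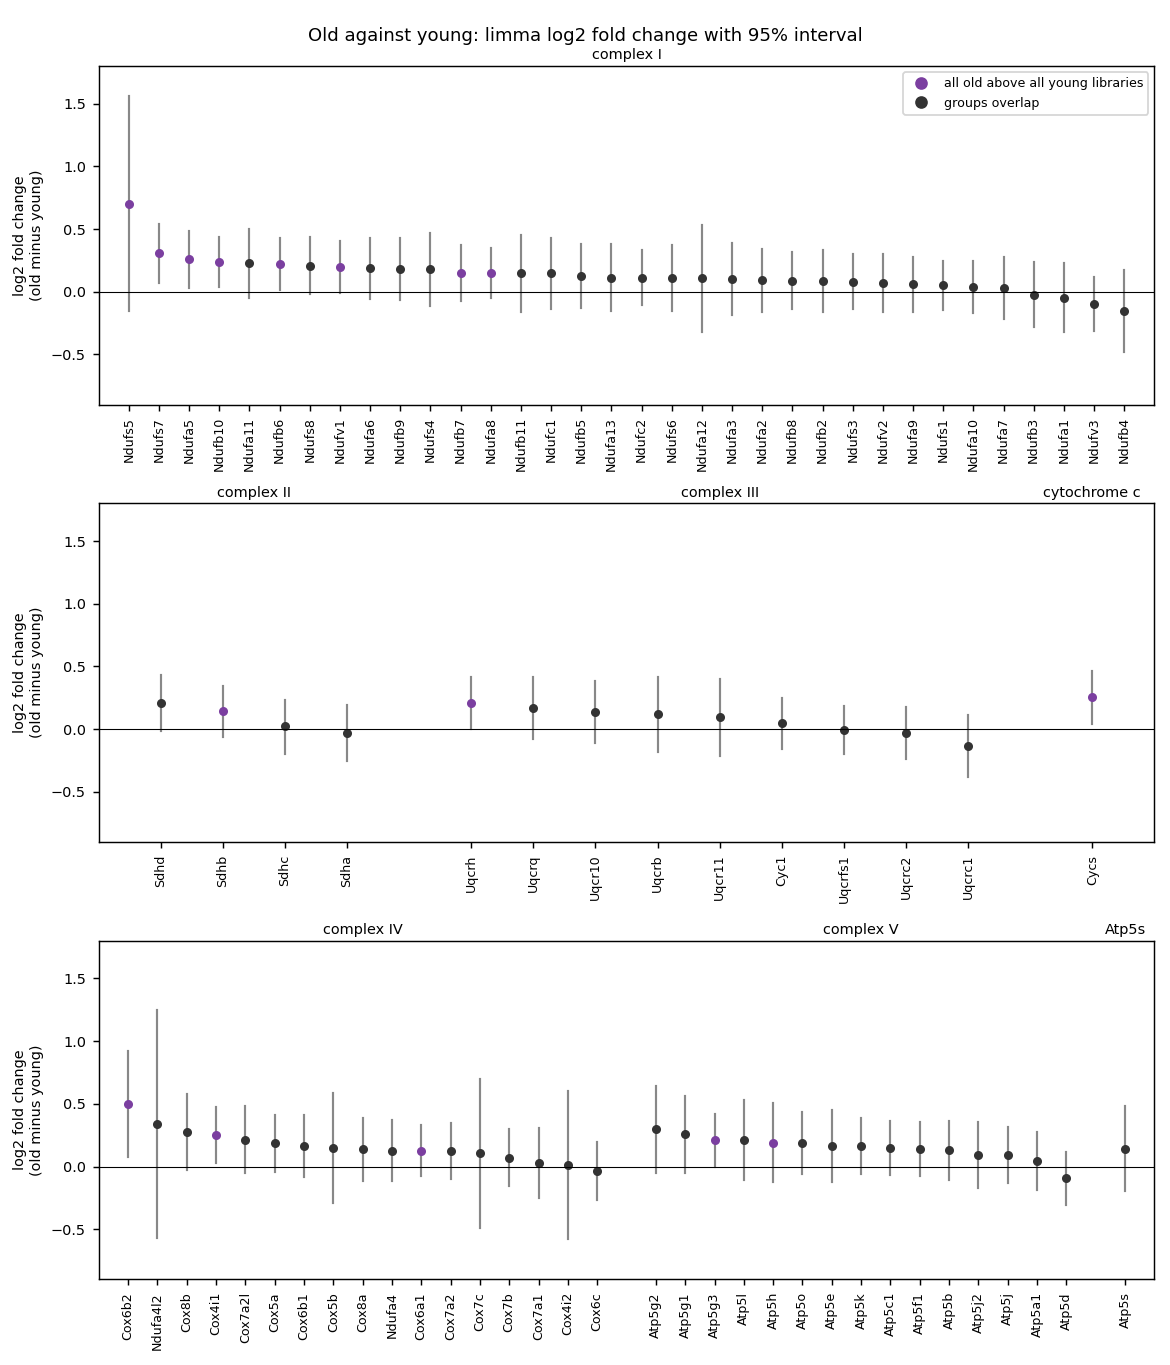
Log2 fold change of each gene shown on the log2(value + 1) scale, old minus young (points) with its 95% interval from limma (bars), by complex and in order of size; purple points are genes whose 3 old libraries all lay above the 3 young. Most points sit a little above 0, with a median of 0.13, and the intervals of all but 8 genes reach 0 or below.

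Complex I takes electrons from NADH, and its 7 nuclear core subunits carry the flavin, the iron-sulphur clusters and part of the quinone site. Ndufs7, which holds the iron-sulphur cluster nearest the quinone, had 3638, 4147 and 3493 normalised read counts in the old libraries, against 3307, 2972 and 2843 in the young. The lowest old value stood above the highest young one. The log2 fold change was 0.31 ± 0.11 (SE), with the smallest adjusted p of the set (limma, Benjamini-Hochberg, 0.139). Ndufs7 lies on chromosome 10 from 80249121 to 80256794 (GRCm38), and values are given per gene symbol, not per transcript. Ndufv1, which binds the flavin and oxidises NADH, had 7109, 7046 and 8042 in the old libraries and 6460, 6459 and 6423 in the young, without overlap (0.20 ± 0.092). The core subunits Ndufs1 (0.050) and Ndufv2 (0.068) had log2 fold changes near 0. The median was 0.079 over the 7 core subunits and 0.11 over the 28 accessory subunits, which surround the core and are needed for assembly and stability.

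Among the accessory subunits, Ndufb10 of the membrane arm had 5451, 5385 and 5278 normalised read counts in the old libraries, against 4853, 4498 and 4331 in the young. Ndufa5, of the arm that reaches into the matrix, had 2350, 2331 and 2063 in the old and 1991, 1857 and 1785 in the young. Neither gene overlapped between the groups, and their log2 fold changes were 0.24 ± 0.089 and 0.26 ± 0.10 (limma, Benjamini-Hochberg adjusted p 0.165 and 0.18). Ndufb6, also of the membrane arm, had 2922, 2982 and 2769 in the old libraries and 2627, 2458 and 2372 in the young (0.22 ± 0.092). Ndufb9 and Ndufa11, with the highest levels of complex I (9338 and 8283 per kilobase), overlapped between the groups (log2 fold changes of 0.18 ± 0.11 and 0.23 ± 0.12). The largest log2 fold change of the complex belonged to Ndufs5, with 40.7, 44.4 and 99.0 in the old libraries and 38.8, 36.3 and 28.6 in the young. Its old mean rests on old replicate 3, where it stayed under 100 normalised read counts, and its coding sequence has a near-identical copy. Ndufb4 (-0.16), Ndufv3 (-0.099), Ndufa1 (-0.046) and Ndufb3 (-0.024) were below 0.

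Complex II feeds electrons from succinate, and its 4 subunits are all nuclear. Sdhd, which with Sdhc anchors the enzyme in the membrane, had 6222, 6298 and 5858 normalised read counts in the old libraries and 5914, 5065 and 4996 in the young, and its groups overlapped (0.21 ± 0.099). Sdhb, the iron-sulphur subunit, had 7682, 7712 and 7582 in the old libraries and 7401, 6952 and 6498 in the young, without overlap (0.14 ± 0.090). Sdha, the flavoprotein that oxidises succinate and also serves the citric acid cycle, had 17640, 17220 and 20080 in the old and 18860, 18420 and 18720 in the young (-0.03 ± 0.098). The young values of Sdha lay within the range of the old ones. Its interval, -0.25 to 0.19, bounds a change in either direction.

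Complex III hands electrons to cytochrome c. Uqcrh, the hinge protein at the cytochrome c side, had 9122, 9776 and 9027 normalised read counts in the old libraries and 8523, 8039 and 7597 in the young, without overlap (0.21 ± 0.092). The small subunits Uqcrq (0.17 ± 0.11) and Uqcr10 (0.14 ± 0.11) overlapped. The core proteins Uqcrc1 and Uqcrc2, which face the matrix, were both below 0 (-0.13 ± 0.11 and -0.029 ± 0.092). The subunits that carry electrons, cytochrome c1 (Cyc1, 0.046) and the Rieske iron-sulphur protein (Uqcrfs1, -0.005), were near 0. Within this complex the 3 genes below 0 were thus Uqcrc1, Uqcrc2 and Uqcrfs1.

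Cytochrome c itself, Cycs, had 6114, 6560 and 5931 normalised read counts in the old libraries, against 5570, 5083 and 4962 in the young. No old value reached down to the young ones, and the log2 fold change was 0.25 ± 0.093 (limma, Benjamini-Hochberg adjusted p 0.16). Besides its role as an electron carrier, cytochrome c starts the caspase cascade when it leaves mitochondria. Its coding sequence matches a copy at 100% identity, so its reads are uncertain.

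Complex IV passes electrons to oxygen. Cox4i1, its most expressed subunit after Cox8a, had 23710, 25870 and 23070 normalised read counts in the old libraries and 21490, 20240 and 19280 in the young (0.25 ± 0.098), without overlap; its exons overlap Emc8 on the other strand. Cox8a had 18540, 21400 and 18190 in the old libraries and 19530, 17000 and 16340 in the young, with overlap (0.14 ± 0.11). Cox6c (-0.038) was the only gene of the complex below 0. Ndufa4 stood at 0.13 ± 0.11.

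Several subunits of complex IV exist as a widely expressed form and a form restricted to certain tissues, and the share of the restricted form was taken per kilobase within each pair. Cox6b2, known from testis, made up 2.59, 3.02 and 3.04% of the pair with Cox6b1 in the old libraries and 2.33, 2.30 and 2.23% in the young. This was the only one of the 5 pairs without overlap, and the log2 ratio was higher by 0.34 in the old (-5.08 ± 0.13 in old and -5.42 ± 0.033 in young, SD, n = 3 each). Cox6b2 itself had 217, 280 and 239 normalised read counts in the old libraries and 194, 172 and 153 in the young, a log2 fold change of 0.50 ± 0.19 that did not pass the test (limma, Benjamini-Hochberg adjusted p 0.166). Cox7a1, the heart and skeletal muscle form, made up 34.1, 37.0 and 34.5% of its pair with Cox7a2 in the old libraries and 37.4, 37.5 and 35.5% in the young. Cox8b, another muscle form, made up 19.7, 17.3 and 22.8% of its pair with Cox8a in the old and 18.9, 19.4 and 16.9% in the young. The groups overlapped in both pairs.

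The 2 forms known to respond to low oxygen were rare. Cox4i2 made up 0.313, 0.433 and 0.463% of the pair with Cox4i1 in the old libraries and 0.557, 0.413 and 0.448% in the young. Ndufa4l2 had 65.0, 150 and 213 normalised read counts in the old libraries and 115, 84.0 and 106 in the young (0.34 ± 0.40), so that the old values surrounded the young ones. Skeletal muscle markers summed to 1669 to 2056 in the old libraries and 1839 to 2476 in the young, and Mybpc1 made up most of these sums, with means of 1175 in old and 1433 in young. The sums also hold Pvalb, which was above 0 (log2 fold change 2.075). It had 75.6, 424 and 473 in the old libraries and 78.7, 52.9 and 47.0 in the young (limma, Benjamini-Hochberg adjusted p 0.132). The median log2 fold change of the 19 markers was -0.90, with 4 above 0 and 10 at an unadjusted limma p under 0.05, beside 21.3% of all genes. Of the 19, 2, Myh1 and Mb, fell in the old mice (limma, Benjamini-Hochberg adjusted p 0.00887 and 0.0178), beside 5.25% of all genes called. DESeq2 called 4 of the 19, beside 10.6% of all genes. Myh1 was listed at 0 in all 3 old libraries, and Mb, myoglobin, averaged 5.45 ± 2.84 in old and 37.7 ± 13.3 in young (SD, n = 3 each). The part of muscle cells in the levels of Cox7a1 and Cox8b was not tested.

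**Figure D3:**
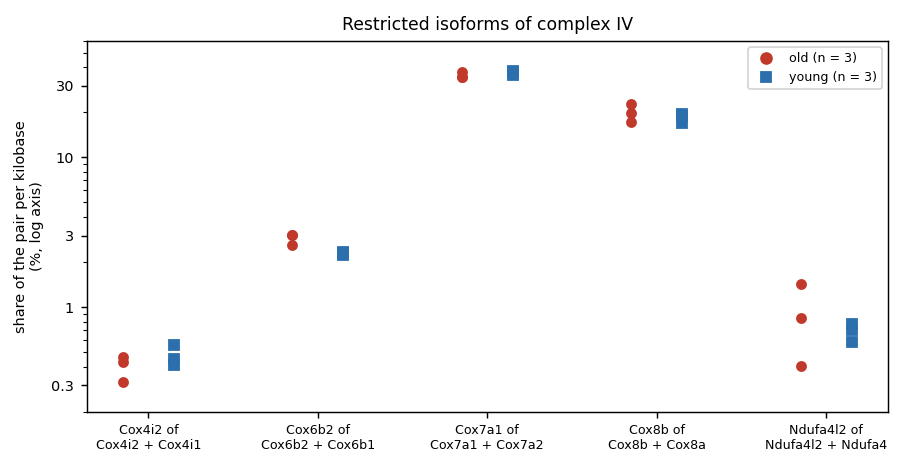
Share of the tissue-restricted isoform in its pair, per kilobase of transcript (%, log axis), in the 3 old (red circles) and 3 young (blue squares) libraries for 5 pairs of complex IV. Only the Cox6b2 shares separate, at 2.59 to 3.04% in old and 2.23 to 2.33% in young, and Cox7a1 makes up over 34% of its pair in every library.

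Complex V joins a catalytic head to a ring of subunit c in the membrane. Atp5b, the catalytic subunit and the most read of the 82 genes, had 67660, 64940 and 71840 normalised read counts in the old libraries and 66130, 59480 and 61230 in the young, with overlap (0.13 ± 0.10). The head and central stalk, 5 genes with Atp5b, had a median log2 fold change of 0.13 and included Atp5d, the only gene of the complex below 0 (-0.095). The 3 genes for subunit c, whose products differ only in the peptide that is removed on import, were all above 0 with a median of 0.26. Of these, Atp5g3 carried most of the reads, with 15440, 17080 and 15500 in the old libraries and 14270, 13990 and 13220 in the young, and did not overlap (0.21 ± 0.094). Atp5g2 (0.30 ± 0.15) and Atp5g1 (0.26 ± 0.14) overlapped, and Atp5g1 and Atp5g2 have near-identical copies. The peripheral stalk (4 genes) and the membrane subunits Atp5j2, Atp5k and Atp5l each had a median of 0.16. Atp5s, the coupling factor, was at 0.14 ± 0.15.

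The small shift was not equal among the libraries. Taking for each gene the deviation of a library from the young mean, the median over the 82 genes was 0.12, 0.21 and 0.094 in old replicates 1, 2 and 3 and 0.14, -0.03 and -0.092 in young replicates 1, 2 and 3. Young replicate 1 thus stood among the old libraries, and so it did in each of the 5 complexes. Without it the median log2 fold change was 0.20 and 52 genes lay wholly above the young, beside 21% of all genes; without young replicate 3 the median was 0.084, and without old replicate 2 it was 0.088. With old replicate 3 left out, where Xist was low, it was 0.16. None of the 82 genes was called without any 1 of the 6 libraries.

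**Figure D4:**
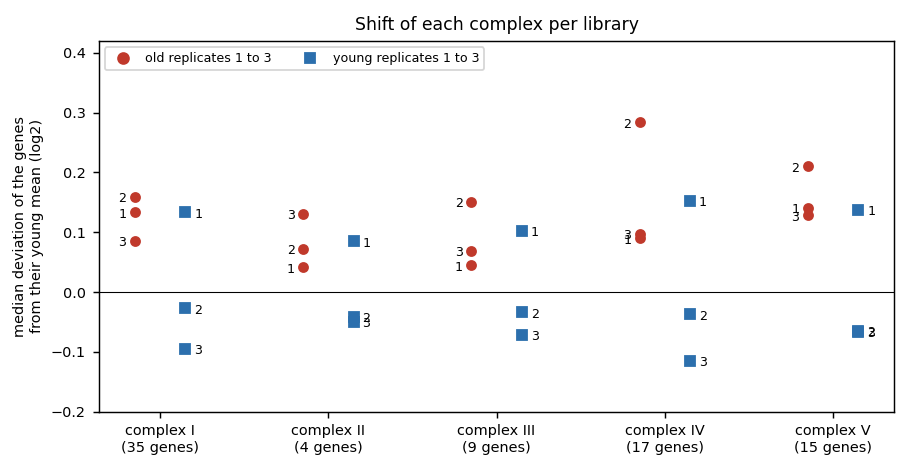
Median, over the genes of each complex, of the deviation of a library from the young mean (log2), for old replicates 1 to 3 (red circles) and young replicates 1 to 3 (blue squares), each labelled by its number. Young replicate 1 lies with the old libraries in every complex, and young replicates 2 and 3 lie below 0.

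The log2 fold changes of other genes varied with transcript length. The 82 genes have a median transcript length of 760.5 bases, against 2795 for matched genes with a mean of at least 50. Under 600 bases, the median log2 fold change was 0.13 for 24 subunit genes, with 22 above 0, and 0.13 for 175 other genes, with 73.1% above 0. From 600 to 1000 bases it was 0.15 for 28 subunit genes, with 24 above 0, and 0.096 for 693 others, with 65.9% above 0. From 1000 to 1500 bases it was 0.13 for 13 subunit genes, with 12 above 0, and 0.067 for 1359 others, with 62.1% above 0. The median of the subunit genes was thus close to that of other genes in the shortest class and above it in both of the next classes. From 1500 to 2500 bases it was 0.046 for 11 subunit genes, with 8 above 0, and 0.010 for 3291 others, with 52.0% above 0. At 2500 bases or more it was 0.050 for 5 subunit genes, with 4 above 0, and -0.046 for 7557 others, with 42.8% above 0. The share above 0 was larger among the subunit genes in each of the 5 classes, and the difference between the sets was not tested. Over 868 other genes under 1000 bases, the median deviation from the young mean was 0.11, 0.21 and -0.003 in old replicates 1, 2 and 3 and 0.12, -0.031 and -0.087 in young replicates 1, 2 and 3. Young replicate 1 was thus also above young replicates 2 and 3 for these genes, whereas old replicate 3, at 0.092 for the subunit genes with a mean of at least 50, was near 0. Once values were corrected for GC content and length of the transcripts, the median was 0.008 over the 82 genes and -0.032 over all genes. Above 0 were 42 of the 82, beside 7741 of all 17091 genes. Of the 82, 10 lay wholly above and 11 wholly below the young values, beside 12.3% and 15.2% of all genes. From the shortest class to the longest, the corrected medians were 0.02, 0.01, -0.041, -0.012 and 0.015 for subunit genes. Those of other genes were -0.021, -0.048, -0.042, -0.056 and -0.024. The medians were then -0.021 for complex I, 0.025 for complex II, -0.022 for complex III, 0.007 for complex IV and 0.029 for complex V. Ndufs7 (0.29), Cox6b2 (0.36), Cox4i1 (0.16) and Cycs (0.13) kept positive log2 fold changes under the correction, and Ndufs7 had a limma adjusted p of 0.0733 there (Benjamini-Hochberg).

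**Figure D5:**
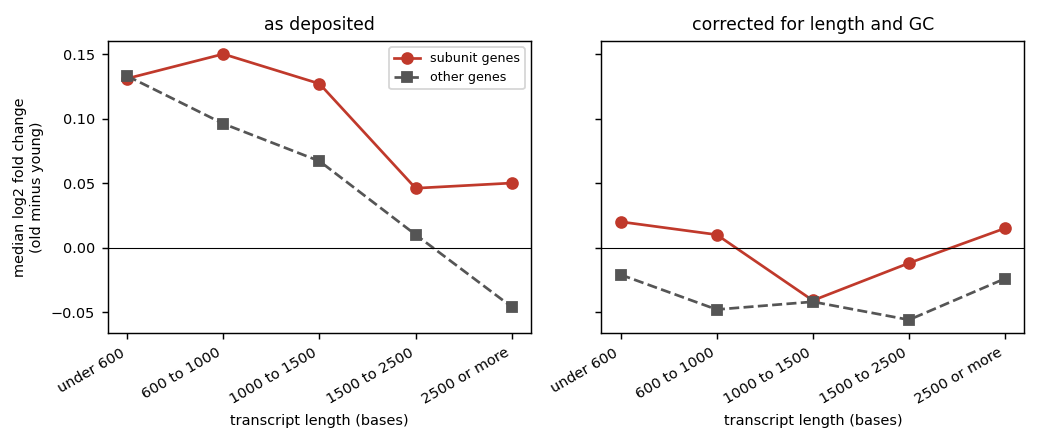
Median log2 fold change, old minus young, of subunit genes (red circles) and of other genes with a mean of at least 50 (grey squares) by transcript length in bases, as deposited (left) and after a correction for length and GC content (right). As deposited, both medians are 0.13 under 600 bases, those of other genes fall in each longer class to -0.046, and those of subunit genes are lowest from 1500 bases on; after the correction all lie near 0.

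As a share of all recovered reads, the 82 genes took 1.43, 1.48 and 1.48% in the old libraries and 1.34, 1.26 and 1.21% in the young. The groups did not overlap, and neither did they with the 10 most read genes of the table left out of the total (1.62, 1.70 and 1.65% in old and 1.55, 1.45 and 1.38% in young). As a sum of normalised read counts they did overlap, at 525495, 545873 and 532883 in the old libraries and 530394, 483955 and 470360 in the young, with young replicate 1 again among the old. With 3 against 3 libraries an exact two-sided permutation test cannot go below p = 0.1, and none was run.

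The genes around oxidative phosphorylation were counted in the same fit. Shares over all genes were 5.25% called by limma, 5.07% by edgeR and 10.6% by DESeq2, and 21.3% at an unadjusted limma p under 0.05. The assembly factors of complexes I to V, 15, 4, 6, 23 and 4 genes, held 0 genes called by limma, with medians between 0.068 and 0.17 and 1, 0, 0, 1 and 1 genes at an unadjusted p under 0.05. By limma no gene was called among 17 of the citric acid cycle and pyruvate dehydrogenase (median -0.026), 14 of fatty acid oxidation (0.088), 18 regulators of mitochondrial biogenesis (0.009), 7 ADP/ATP and phosphate carriers and porins (0.12) or 11 of mitochondrial structure and dynamics (0.075). The same held for the 26 import subunits (0.068) and the 78 proteins of the mitochondrial ribosome (0.12), and for the 80 of the cytosolic ribosome (0.21), of which DESeq2 called 1. Apart from that gene, edgeR and DESeq2 called 0 genes of these lists too. An unadjusted limma p under 0.05 was reached by 5 of 78 mitochondrial and 11 of 80 cytosolic ribosome genes, beside 21.3% of all genes. It was reached by 2 each of the citric acid cycle, biogenesis and import lists, and by 0 of the other 3 lists. Slc25a4, an exchanger of ADP and ATP at the inner membrane, had 28320, 27820 and 28110 in the old libraries against 32720, 33260 and 29780 in the young, a log2 fold change of -0.18 that did not pass the test (limma, Benjamini-Hochberg adjusted p 0.311), while Slc25a5, another, was at 0.15. Of 17 glycolytic genes (median 0.077, 12 above 0), limma called 1, beside 5.25% of all genes, edgeR 1 and DESeq2 2. Pfkm, the muscle form of phosphofructokinase, fell, with 8886, 10510 and 10640 in old and 13470, 13920 and 14210 in young (-0.47 ± 0.10, limma, Benjamini-Hochberg adjusted p 0.0316). Pfkp (0.365) and Gpi1 (0.302) were above 0 and did not pass the limma test.

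Some markers of other cells differed between the groups. Over all genes, limma called 5.25%, edgeR 5.07% and DESeq2 10.6%, and 21.3% had an unadjusted limma p under 0.05. Of 12 macrophage markers, 8 rose in the old mice by limma with Benjamini-Hochberg adjustment, with sums of 25740, 26480 and 36650 in the old libraries and 9685, 8654 and 8304 in the young. Of 10 neutrophil markers 3 were called higher by limma, with sums of 5793, 963 and 11190 in the old and 462, 399 and 577 in the young. All 10 were above 0 in log2 fold change, with 10 at an unadjusted limma p under 0.05, 4 called by edgeR and 10 by DESeq2. Erythroid markers summed to 22000, 7145 and 43390 in the old and 4969, 3918 and 2896 in the young, with 0 of 10 called by limma, 9 at an unadjusted p under 0.05, 4 by edgeR and 8 by DESeq2. Old replicate 2, highest in the median of the 82 genes, was lowest of the old in erythroid and neutrophil markers. It was also lowest of the old in marginal cell markers (391200), highest in fibrocyte markers (946300) and highest in the median of other genes under 1000 bases (0.21). A link between these was not tested. Fibrocyte markers, 6 genes, were all below 0 in log2 fold change (1 called by limma, median -0.54). Of 8 marginal cell markers 1, Atp1b2, a beta subunit of Na,K-ATPase, was called lower (limma, Benjamini-Hochberg adjusted p 0.0256). The median of these 8 was -0.146, with 2 above 0 and 5 at an unadjusted limma p under 0.05 in either direction. The part of the cell makeup in the levels of the 82 genes was not tested.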

How the data were processed

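Total RNA was purified with a column kit and libraries were made with a TruSeq RNA kit, per the labels' protocols, which also state that degraded samples were left out. Per the submitters' processing notes, TopHat2, Partek, DESeq2 and mm10 were used, with no version or role stated; annotation, strand and the treatment of multiply mapping reads are not given in the sources used here. Each deposited value is a signal, the number of reads scaled by a library's size factor; division by the step between low values gave whole reads, within 0.1, for 99.9% of values. The deposited table of the authors also holds p-values, adjusted values and a signed fold per gene.

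Groups were compared with limma 3.58.1 (trend, robust; R 4.3.3) on log2(value + 1), Benjamini-Hochberg adjusted over 17091 genes with no filter on low values, at a threshold of 0.05. The plan named edgeR for whole counts; limma was used because the values are normalised. Such fold changes understate the change of genes with few reads. ± marks the SE of a log2 fold change and the SD of a group mean. Alternatives were edgeR 4.0.16 and DESeq2 1.42.0 on the recovered reads, other scalings, filters and pseudocounts, a replicate block, leaving out each library, and a correction for length and GC content fitted where the mean was 50 or more. The fits were tested on simulated data.

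Lengths and positions are those of GENCODE M21 (GRCm38, the same assembly as mm10): all 82 genes and 16825 of 17091 symbols (98.4%) matched. Copies were found with BLAST+ 2.17.0 (coding sequence against all transcripts, at least 50% of its length). The members and lists were chosen with earlier results of these data known. Every gene of the set could be named; given in full are, per complex, the 3 with the smallest p and the 2 with the highest level per kilobase, and the isoform pairs. Genes outside these were named after their values were seen. The counts and medians cover all 82 genes, of which 1 is not reported here by itself.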

Additional observations from a re-analysis of the deposited data

How the results depend on the processing

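The count of 0 called genes among the 82 held under every alternative run. The count over all genes was 898 and moved to 337 without trend and robust estimation, 1819 with DESeq2, 1818 in the authors' deposited table, 210 at an adjusted p under 0.01 and, without 1 library, between 230 and 1134. With the replicate block it was 406. Deviations of same-numbered libraries had correlations of -0.244, -0.096 and -0.088 over 13308 genes, and those of other old and young libraries ran from -0.146 to 0.235. The deviations were taken from the mean of each group, so these correlations constrain each other. They cannot exclude that the numbers pair the mice. The median log2 fold change of the 82 genes was 0.133, and 0.008 with the length and GC correction, beside -0.032 over all genes. That correction also gave -0.021 for complex I, -0.022 for complex III, 0.007 for complex IV and 0.029 for complex V. Quantile normalisation gave 0.147 for complex II. Leaving out 1 library gave 0.026 to 0.198 for complex III. The genes whose old values all lay above the young ones numbered 16, and 27 after quantile normalisation, 10 after the length and GC correction and 16 to 52 without 1 library; those wholly below numbered 0, and 11 after that correction and 0 to 3 without 1 library.

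Of 494 values of 26 named genes under alternatives, 14 lay on the other side of 0, in 6 genes, none of which was called. The length and GC correction gave -0.092 for Cox4i2, -0.105 for Cox7a1, -0.026 for Cox7a2 and -0.122 for Ndufa4. Quantile normalisation gave -0.153 for Cox4i2 and 0.019 for Sdha. Without 1 library, Cox4i2 ran between -0.098 and 0.196, Cox7a1 between -0.065 and 0.114, Ndufa4l2 between -0.03 and 0.82 and Sdha between -0.099 and 0.012. The cause was not tested. The alternatives for genes without overlap and for read shares were chosen after seeing the data. Genes with few reads, such as Ndufs5, are limited by depth, and the 14 with near-identical copies by how reads were mapped.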
